A study of Arabidopsis thaliana with 3 samples.

Results

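The UGT genes of Arabidopsis thaliana are described here through 47 genes on the ATH1 array, a microarray with 22746 probe sets other than controls. The members are all probe sets whose only gene symbol is UGT followed by a number, a letter and a number, whatever their signal, and each symbol had 1 probe set. They were 47 of the 13350 genes that a probe set with 1 gene symbol names. RefSeq holds 58 UGT symbols, so the subfamily counts and medians below cover only the genes measured here. Each was matched to its locus in RefSeq (assembly TAIR10.1), used for names and gene order only. They fell into 11 subfamilies by the number in the symbol: 9 genes in UGT71, 8 in UGT76, 7 in UGT73, 5 each in UGT84 and UGT85, 4 in UGT72, 3 each in UGT74 and UGT78, and 1 each in UGT80, UGT87 and UGT88.

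UGTs are enzymes that move a sugar, most often glucose from UDP-glucose, onto small molecules. Plants use them to store or inactivate hormones such as auxin, abscisic acid, cytokinins and salicylic acid, to finish flavonoids, lignin precursors and glucosinolates, and to conjugate foreign chemicals, herbicides and their breakdown products among them. 2,4-D (2,4-dichlorophenoxyacetic acid) is a synthetic auxin that kills broad-leaved plants at high dose.

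Whole plants of the accession Col-0 (stock N1092) at growth stage 1.04 were flooded with distilled water (1 array) or with 1 mM 2,4-D at pH 7.0 (2 arrays), for 1 hour in each case, and total RNA was hybridised, per the labels. All plants had been grown on phytagel with MS medium and 1.5% sucrose under a photoperiod of 16 hours, with growth given as 14 days. Whether the treated arrays came from separate plants or plates is not in the labels, so p-values rest on a spread between those arrays that may be technical. In the main limma fit that spread was read from its trend over signal across all tested probe sets. The standard errors (SE) and p-values of that fit therefore do not measure how far apart a gene's own treated arrays were. In whole plants, fewer cells of a type and less RNA per cell cannot be told apart.

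The values are MAS5 signals, a summary of each probe set's brightness on a linear scale. The median signal over all probe sets was 38.5 to 41.9 on the 3 arrays. Low signals were read against 27 bacterial control probe sets, all dim on each array. The brightest, called the dim control below, was 13.9 with water and 10.7 and 8.37 on 2,4-D replicates 1 and 2. The bioB hybridisation control was 228 with water and 102 and 79.8 with 2,4-D, so a control that should not depend on the plants was higher on the water array; its part in the results below was not tested. By symbol, 5 of 23 listed leaf and photosynthesis markers and 5 of 21 listed root markers were matched to a probe set. Of these, 5 leaf and 2 root markers were tested, and 0 of either list passed in limma at an adjusted p of 0.05. The median log2 change of the tested genes was -0.29 in the leaf list and 0.09 in the root list. The untested root markers were EXPA7 (37.0 with water, 15.1 and 15.3 with 2,4-D), EXPA18 (43.8, then 7.98 and 3.55) and LBD29 (5.71, then 14.1 and 12.5). EXPA7 and EXPA18 were lower on both treated arrays, and LBD29 was higher from a water signal below the dim control. A test needed a mean signal of 24.8 over the 3 arrays, which EXPA7 and EXPA18 missed through their 2,4-D signals. That rule thus had a part in the root median and in the 0 that passed. The tested ones were BGLU23 (2240, then 2985 and 2439) and LBD16 (31.9, then 34.8 and 25.9). The part of leaf or root cells in the results below was not tested.

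With water, 29 of the 47 UGT genes (61.7%) lay above the dim control, against 73.5% of all probe sets analysed. Among the 13513 probe sets with 1 gene symbol, as the members have, the share was 68.7%. Of the 47, 26 were above the dim control on all 3 arrays. With water or on both 2,4-D arrays 33 were above it, and 11 were at or below it on every array. The other 3 (UGT73B4, UGT76E2 and UGT85A3) were above it on 1 of the 2,4-D arrays only. The median signal of the UGT genes with water was 26.0, and their signals ran from 0.356 to 712. Signals of different probe sets also reflect how well each probe set binds, so their order is not an order of transcript amounts. UGT88A1 (AT3G16520) had the highest signal with water, 712, followed by UGT74B1 at 163, UGT71C4 at 138, UGT74D1 at 105 and UGT78D2 at 103.

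**Figure D1:**
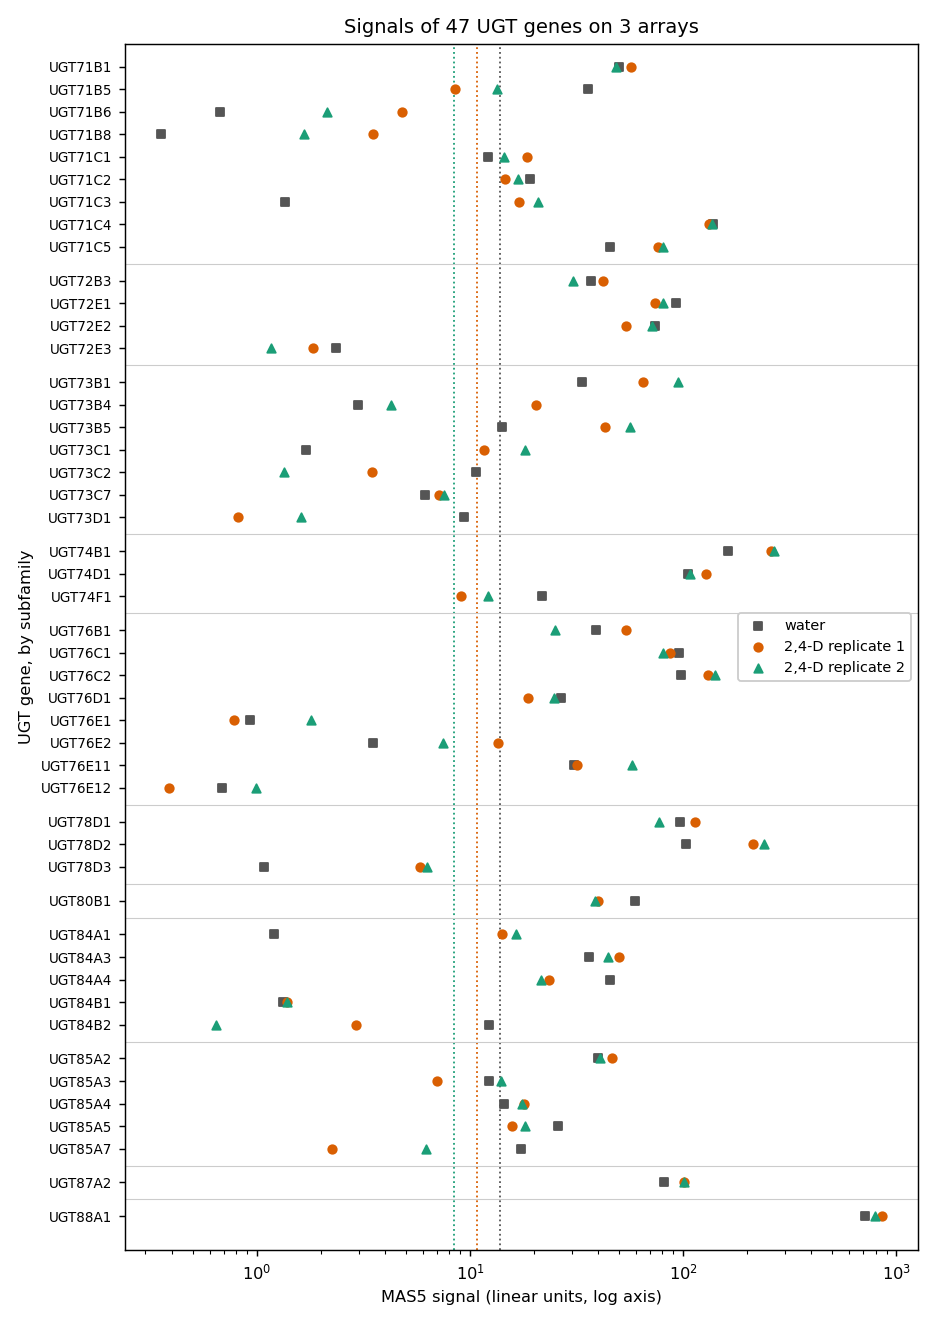
MAS5 signal (log axis) of each of the 47 UGT genes on the water array (squares) and on 2,4-D replicates 1 (circles) and 2 (triangles), grouped by subfamily; each dotted line is the brightest dim control of the array of that colour (13.9, 10.7 and 8.37). The UGT73 genes other than UGT73B1 and UGT73B5 lie at or below the control with water, and UGT88A1 is the highest at 712 to 861.

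The subfamilies differed in how many of their genes gave a usable signal. With water, all 3 UGT74 genes, 4 of 5 UGT85 genes, 3 of 4 UGT72 genes, 2 of 3 UGT78 genes, 5 of 8 UGT76 genes and 5 of 9 UGT71 genes were above the dim control. In UGT84 2 of 5 genes were, and in UGT73 2 of 7. The median signal with water was 105 in UGT74, 96.4 in UGT78, 55.4 in UGT72, 28.7 in UGT76, 19.1 in UGT71, 17.4 in UGT85, 12.3 in UGT84 and 9.35 in UGT73. Within subfamilies the signals with water spanned from 3.27-fold in UGT85 to 387-fold in UGT71, many of the lowest values lying below the dim control.

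Within 1 hour of 2,4-D, 5 UGT genes rose. They were UGT73B5 and UGT73B1, of the subfamily that holds several stress-responsive enzymes, UGT78D2 of flavonoid glucosylation, UGT71C5 of abscisic acid conjugation and UGT74B1 of glucosinolate synthesis. Probe sets were tested with limma where their mean signal over the 3 arrays reached 24.8, which 22 of the 47 UGT genes did (46.8%, against 13648 of the 22746 probe sets). Of the 13513 probe sets with 1 gene symbol, 7284 were tested, with 713 called higher and 760 lower. Of the 22 tested UGT genes, 5 (22.7%) were higher with 2,4-D, where 10.8% of all tested probe sets were called higher. None was lower, 0 of 22 in limma, where 10.5% of all tested probe sets were called lower and 21.3% were called in either direction. Scaling the arrays to 1 median moved the calls over all probe sets from 1472 higher and 1434 lower to 2031 and 991, and those of the UGT genes to 6 and 0. At an unadjusted p under 0.05, 6 of the tested UGT genes were higher and 1 was lower. Since treated arrays make up most of the filter mean, dim genes passed it more easily when they rose than when they fell. UGT73B5 entered the test with a water signal of 14.1, while UGT71B5, UGT76D1 and UGT85A5 missed it at 35.9, 26.6 and 26.0 with water. The filter thus had a part in the count of 5 higher and 0 lower. The median log2 change of the tested UGT genes was 0.14, against -0.04 for all tested probe sets.

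**Figure D2:**
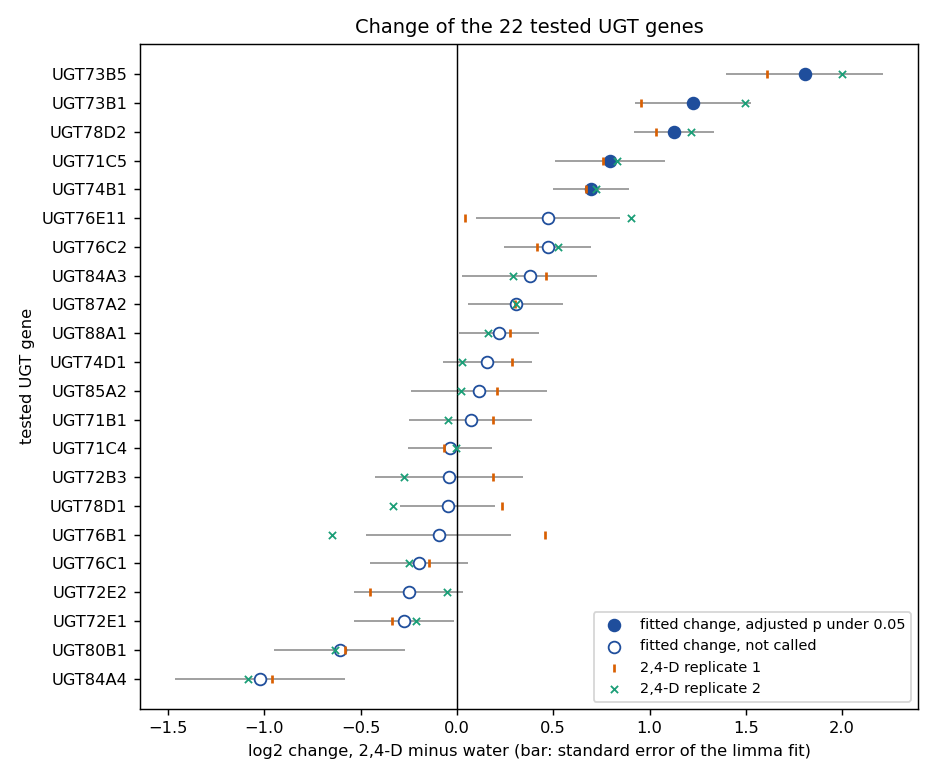
Fitted log2 change (2,4-D minus water, x axis) of each tested UGT gene, with the standard error of the limma fit as a bar; filled points passed an adjusted p of 0.05, and the small marks give each 2,4-D array against the water array. The 5 filled points run from 0.70 for UGT74B1 to 1.81 for UGT73B5, and UGT84A4 is the lowest at -1.02. Each bar comes from the trend of the variance over signal, not from the gene's own arrays.

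UGT73B5 and UGT73B1 rose, the 2 of 7 UGT73 genes that were tested. UGT73B5 entered the test through its 2,4-D signals, its water signal being under the filter value, and it was also called without a filter. UGT73B5 (AT2G15480), which acts in redox and pathogen responses, went from 14.1 with water to 43.1 and 56.5 with 2,4-D. Its water signal lay just above the dim control and both 2,4-D signals were far above theirs. The log2 change was 1.81 ± 0.41 (SE from the trend over signal, n = 2 against 1), a 3.49-fold rise with a limma adjusted p of 0.000158. UGT73B1 (AT4G34138) went from 33.6 with water to 65.1 and 94.5 with 2,4-D. Both treated arrays were above the water array, as for 32.5% of all probe sets, and they differed 1.45-fold. Its change was 1.23 ± 0.30, or 2.34-fold (limma adjusted p = 0.000578).

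The other UGT73 genes were too dim to be tested. UGT73B4 (AT2G15490), whose enzyme conjugates the explosive TNT, had 2.99 with water and 20.4 and 4.27 with 2,4-D. The treated arrays disagreed, with the first above the dim control of its array and the second below. UGT73C1 (AT2G36750), another TNT-conjugating enzyme gene, had 1.70 with water and 11.6 and 18.1 with 2,4-D. Both treated signals were above the dim control of their own array, and the water signal was not. The mean of the treated arrays puts 2,4-D at least 1.05-fold above water. The first treated signal alone sets no such limit, as it lay below the control of the water array (13.9). UGT73C2, UGT73C7 and UGT73D1 were at or below the control on every array. Lower limits of this kind set the dim group at its dim control, and an "at least" value close to 1 says little about size.

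Of the 3 flavonoid genes of UGT78, 1 rose, 1 did not pass and 1 was not tested. UGT78D2 (AT5G17050) encodes the enzyme that glucosylates flavonols and anthocyanidins, and its signal went from 103 with water to 212 and 241 with 2,4-D. Each treated array was at least 2-fold above the water array. The rise was 2.18-fold, a log2 change of 1.13 ± 0.21 (limma adjusted p = 1.76e-06, the lowest of the UGT genes). UGT78D1 (AT1G30530), which adds rhamnose to flavonols, had 96.4 with water and 113 and 76.7 with 2,4-D. The treated arrays lay on either side of the water array, and the change was -0.05 ± 0.25. The difference between the changes of these genes was not tested. UGT78D3, the arabinosyltransferase gene, was at or below the dim control on all arrays (1.08 with water, 5.80 and 6.28 with 2,4-D).

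Within UGT71, among genes above the dim control with water or on both 2,4-D arrays, a gene of abscisic acid and one of salicylate metabolism had the highest changes. UGT71C5 (AT1G07240), which makes the glucose ester of abscisic acid, went from 45.1 with water to 76.2 and 80.4 with 2,4-D. The treated arrays were 1.05-fold apart and both above the water array. The rise was 1.73-fold (log2 change 0.79 ± 0.29, limma adjusted p = 0.0305). It did not pass without the filter (adjusted p = 0.0897) or when the variance was fitted with no trend over intensity (adjusted p = 0.0615). UGT71C3 (AT1G07260), whose enzyme glucosylates methyl salicylate, had 1.35 with water and 17.0 and 20.8 with 2,4-D. It was below the dim control with water and above it on both treated arrays, at least 1.36-fold higher. It was too dim for the main test. The limma fit without a filter gave an adjusted p of 0.0314, which rests on the water signal far below the dim control, and with that signal raised to the control the log2 change was 0.44. UGT71C4 (AT1G07250), with 138 with water and 132 and 137 with 2,4-D, differed by less than 1 SE (log2 change -0.04 ± 0.22).

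Other UGT71 genes were dim, fell short of a test or were tested and did not pass. UGT71B5 (AT4G15280) was 35.9 with water and 8.49 and 13.3 with 2,4-D, lower on both treated arrays and below the dim control on the first. Its mean was under the filter, and without a filter the limma adjusted p was 0.153. UGT71B1 (50.1 with water, 57.1 and 48.5 with 2,4-D) did not pass. UGT71C1, which acts on hydroxycinnamic acids and flavonoids in vitro, had 12.1 with water and 18.6 and 14.5 with 2,4-D, and UGT71C2 had 19.1 with water and 14.7 and 16.7. UGT71B6 and UGT71B8, genes of abscisic acid glucosylation, stayed below the dim control on all 3 arrays, so that no change of theirs could be measured.

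In UGT74, the glucosinolate gene rose and the auxin gene did not pass. UGT74B1 (AT1G24100) adds the sulfur-linked glucose of glucosinolates, the defence compounds of crucifers. It went from 163 with water to 258 and 268 with 2,4-D. Both treated arrays were above the water array and within 1.04-fold of each other. The rise was 1.62-fold (log2 change 0.70 ± 0.20, limma adjusted p = 0.00433), and with no trend in the variance it did not pass (adjusted p = 0.0903). UGT74D1 (AT2G31750), which glucosylates indole-3-acetic acid and its oxidised form, measured 105 on the water array and 128 and 107 with 2,4-D, a change of 0.16 ± 0.23. Whether UGT74B1 and UGT74D1 differed in their change was not tested. UGT74F1 (AT2G43840), which makes the glucoside of salicylic acid, was 21.8 with water and 9.03 and 12.1 with 2,4-D. It was lower on both treated arrays, once below the dim control, and too dim to be tested.

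The genes of hydroxycinnamate esters in UGT84 went apart in value, with 0 of 2 tested genes passing. UGT84A4 (AT4G15500) had 45.6 with water and 23.4 and 21.5 with 2,4-D. The treated signals were close together and each was under the water signal. The log2 change was -1.02 ± 0.44, which did not pass over all tested probe sets (limma adjusted p = 0.0801) and was called lower with no trend in the variance (adjusted p = 0.0259). UGT84A3 (AT4G15490) measured 36.3 on the water array and 49.9 and 44.4 with 2,4-D, a change of 0.38 ± 0.35. UGT84A1 (AT4G15480), an enzyme gene for sinapate glucose ester, had 1.21 with water and 14.1 and 16.5 with 2,4-D. It was above the dim control on both treated arrays only, at least 1.102-fold higher, and without a filter its limma adjusted p was 0.0506. UGT84B1, whose enzyme makes the glucose ester of indole-3-acetic acid, was near the bottom of the scale on all arrays (1.32 with water, 1.39 and 1.38 with 2,4-D).

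None of the tested members of UGT72, UGT76, UGT80, UGT85, UGT87 and UGT88 passed. UGT72B1, listed under the symbol GT72B1 and so no member, is given further on with its rise and is not in the UGT72 counts and median. The cytokinin N-glucosylation genes of UGT76 were UGT76C2 (97.5 with water, 130 and 140 with 2,4-D) and UGT76C1 (95.9 with water, 86.8 and 80.6). For UGT76C2 the change was 0.47 ± 0.23 with a limma adjusted p of 0.124, and it passed as higher once arrays shared 1 median (adjusted p = 0.0432). UGT76B1, which conjugates isoleucic acid, salicylic acid and N-hydroxypipecolic acid, measured 39.1 on the water array and 53.7 and 25.0 with 2,4-D, the widest disagreement between treated arrays among the tested UGT genes (2.15-fold). For UGT76E11 (30.7 with water, 31.6 and 57.5 with 2,4-D) both treated signals were above the water signal, but they differed 1.82-fold. UGT76D1, which acts on dihydroxybenzoic acids, was under the filter (26.6 with water, 18.8 and 24.8).

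The lignin precursor genes UGT72E1 and UGT72E2, which glucosylate coniferyl and sinapyl aldehydes or alcohols, had lower signals on both treated arrays. UGT72E1 had 92.9 with water and 73.5 and 80.2 with 2,4-D, and UGT72E2 had 73.9 with water and 54.1 and 71.3. Their log2 changes of -0.28 ± 0.26 and -0.25 ± 0.29 did not pass. UGT72B3 (36.9 with water, 42.1 and 30.5 with 2,4-D) went both ways, and UGT72E3 was below the dim control throughout.

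Of the subfamilies with 1 gene, the sterol glucosyltransferase gene UGT80B1 (AT1G43620) had 59.6 with water and 39.8 and 38.4 with 2,4-D. The treated arrays were both lower and 1.04-fold apart, and the change of -0.61 ± 0.34 did not pass (limma adjusted p = 0.203). UGT87A2, a gene with a role in flowering time, had 81.7 with water and 101 on each treated array (0.30 ± 0.25). UGT88A1 had 712 with water and 861 and 795 with 2,4-D (0.22 ± 0.21). In UGT85, UGT85A2 had 39.99 with water and 46.2 and 40.6 with 2,4-D (0.12 ± 0.35). UGT85A7 (AT1G22340), under the filter, had 17.4 with water and 2.24 and 6.21 with 2,4-D. It was above the dim control on the water array only, at least 1.83-fold lower with 2,4-D. UGT85A5, also untested, had 26.0 with water and 15.8 and 18.1 with 2,4-D.

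The order of the subfamilies by median change depended on which of their genes were counted. For the 33 genes above the dim control with water or on both 2,4-D arrays, and with dim signals raised to that control, the median log2 change was 1.23 over 3 genes in UGT73, 0.54 over 2 in UGT78, 0.16 over 3 in UGT74, 0.14 over 3 in UGT84 and 0.07 over 7 in UGT71. It was -0.10 over 5 genes in UGT76, -0.25 over 3 in UGT72 and -0.25 over 4 in UGT85, and it was 0.30, 0.22 and -0.61 for the lone genes of UGT87, UGT88 and UGT80. Over all 7 UGT73 genes and all 3 UGT78 genes, dim signals raised, it was -0.08 and -0.05, where a gene below the control on every array takes a value of -0.55 from the controls themselves. Over all 33 it was 0.07, against -0.12 for the 17518 probe sets chosen the same way. The range among the genes so counted was at least 1 log2 unit wide in UGT71 (-1.58 to 0.79), UGT73 (0.07 to 1.81), UGT74 (-0.93 to 0.70), UGT78 (-0.05 to 1.13), UGT84 (-1.02 to 0.38) and UGT85 (-0.87 to 0.29). Differences between subfamilies were not tested.

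**Figure D3:**
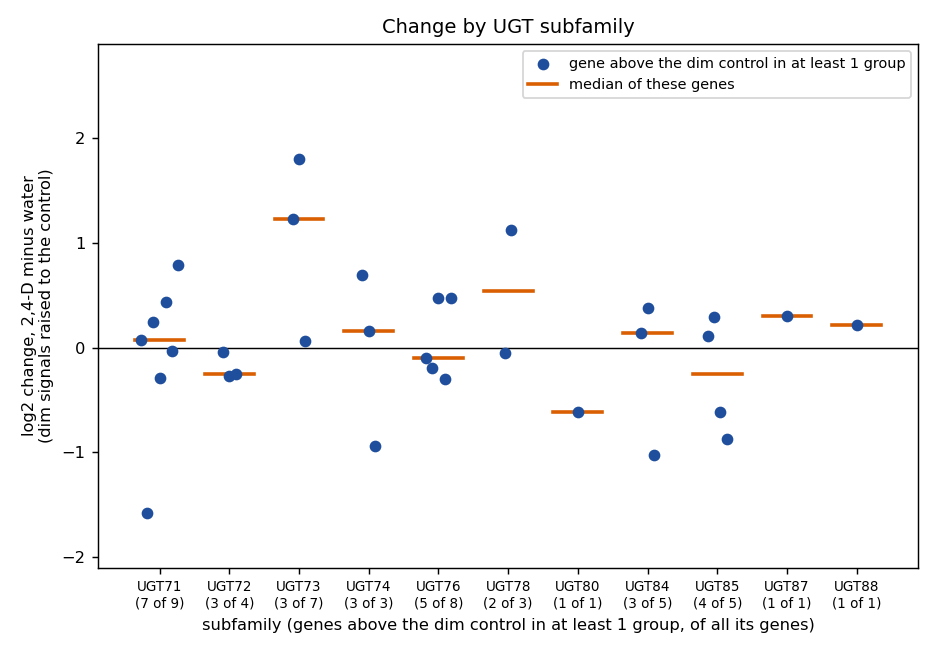
Log2 change (2,4-D minus water, mean of the 2,4-D arrays, with dim signals raised to the dim control) of the UGT genes above that control with water or on both 2,4-D arrays, by subfamily; orange lines are medians and the axis gives how many of each subfamily's genes are shown. The UGT73 genes shown lie between 0.07 and 1.81, and the UGT71 genes spread from -1.58 to 0.79.

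By size alone, 9 of the 47 UGT genes lay 2-fold or more above the water array on both 2,4-D arrays (19.1%, against 5.89% of all probe sets), and 5 lay as far below it (10.6%, against 8.63%). Most of these were dim. Of the 9, 7 were at or below the dim control with water and 4 were not above it on both treated arrays either. Of the 5, 3 were at or below it with water. With dim signals raised to the control, 2 genes were still higher by that size and 1 lower. UGT71C3, UGT73C1 and UGT84A1, named because they meet this rule, were at or below the dim control with water, above it on both treated arrays, and past 2-fold by their measured signals (3 of 47, or 6.38%, against 1.6% of all probe sets). Against the dim control in place of water signals of 1.21 to 1.70, their lower limits were the 1.36-fold, 1.05-fold and 1.102-fold given above, all under 2-fold. The reverse pattern by measured signals was met by UGT85A7 (1 of 47, or 2.13%, against 1.97%), whose lower limit was 1.83-fold.

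Direction on both treated arrays was counted for all 47 genes without regard to size. On both arrays 24 UGT genes were higher than with water (51.1%, against 32.5% of all probe sets) and 16 were lower (34.04%, against 46.3%), while 7 went both ways. Among the 26 genes above the dim control on all 3 arrays, 13 were higher on both and 9 lower, or 50% and 34.6%. The same shares over the 15279 probe sets above it on all arrays were 35.3% and 46.3%. Both treated arrays were set against the same water array, so a deviation of that array enters both directions.

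Many UGT genes lie beside each other on the chromosomes. In the RefSeq gene order, 31 of the 47 fell into 13 runs with at most 2 other protein-coding genes between neighbours, and each run held genes of 1 subfamily. All 47 genes were measured by probe sets whose name carries the plain suffix, without the mark for probes shared among several genes. The choice of probe sets with 1 gene symbol favours such names. Binding of similar neighbours to the same probes was not tested. In 5 of the runs at least 2 genes were above the dim control with water or on both treated arrays. In the run of UGT84A1, UGT84A3 and UGT84A4 the log2 changes, with dim signals raised to the control, were 0.14, 0.38 and -1.02. In that of UGT71C5, UGT71C4 and UGT71C3 they were 0.79, -0.04 and 0.44, and UGT71C4, which lies between the others, was nearest to 0. UGT85A7, UGT85A2 and UGT85A5 had -0.87, 0.12 and -0.62. UGT76C2 and UGT76C1 had 0.47 and -0.20, and UGT71C2 and UGT71C1 had -0.29 and 0.24. Differences between neighbours were not tested.

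**Figure D4:**
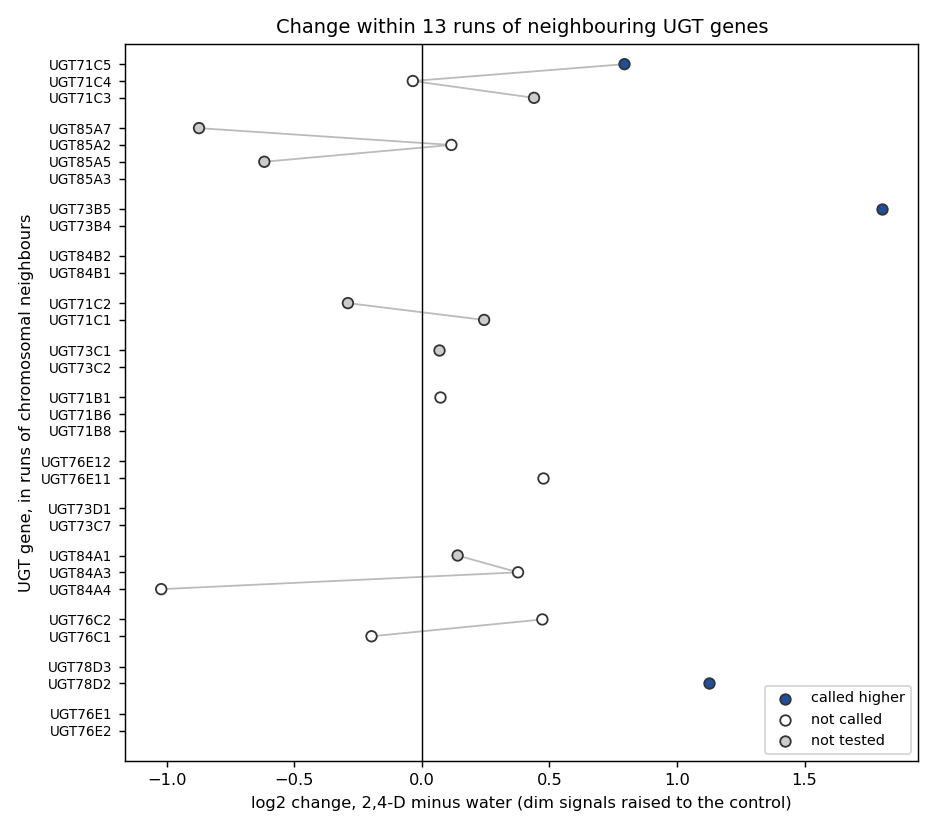
Log2 change (2,4-D minus water, dim signals raised to the dim control) of UGT genes in the 13 runs of chromosomal neighbours, in gene order; lines join the genes of a run, and a gene with no point was above the control neither with water nor on both 2,4-D arrays. The run of UGT84A1, UGT84A3 and UGT84A4 spans from -1.02 to 0.38 and that of UGT71C5, UGT71C4 and UGT71C3 from -0.04 to 0.79.

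Some probe sets for glycosyltransferases of the same enzyme class carry another symbol, and they were looked up by RefSeq synonym after the values of the members were seen. GT72B1 (AT4G01070, UGT72B1), whose enzyme conjugates chlorinated phenols and anilines, had 119 with water and 335 and 341 with 2,4-D. Both treated signals were above the water signal and close together. The rise was 2.83-fold (log2 change 1.50 ± 0.20, limma adjusted p = 2.76e-12), above that of any called UGT gene other than UGT73B5. IAGLU (AT4G15550), given in RefSeq as an indole-3-acetate beta-D-glucosyltransferase gene, went from 110 with water to 307 and 298 with 2,4-D, a 2.74-fold rise (1.45 ± 0.20, limma adjusted p = 2.9e-11). SGT (UGT80A2), for a sterol glucosyltransferase, had 109 with water and 92.9 and 75.0 with 2,4-D and did not pass. The anthocyanin xylosyltransferase gene UF3GT (UGT79B1) stayed between 14.0 and 18.1 and was not tested.

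The pathways that feed the UGTs or use their products were followed through 10 gene lists. Of 272 listed genes, 30 were matched by symbol to a probe set, and 22 of them were tested. The other listed genes were not looked at, so the counts do not describe whole pathways. Of the 22 tested genes, 6 rose and 1 fell, against 10.8% and 10.5% of all tested probe sets. The list of phenylpropanoid and lignin precursor synthesis, with 5 of its 26 genes matched, held 4 of the 6 that rose. CCR2, a cinnamoyl-CoA reductase gene, had 8.19 with water and 38.6 and 54.9 with 2,4-D, at least 3.32-fold higher. HCT, which forms the hydroxycinnamoyl esters of the pathway, went from 766 with water to 1495 and 1379 with 2,4-D (1.87-fold, limma adjusted p = 0.000723). REF1, an aldehyde dehydrogenase gene that yields ferulic and sinapic acids, went from 286 with water to 542 and 484 (1.79-fold). BGLU46, a beta-glucosidase gene for lignin precursor glucosides, went from 22.1 with water to 52.2 and 37.3, with a limma adjusted p of 0.0498. CCR2 and BGLU46 had water signals under the filter value and entered the test through their 2,4-D signals, while BGLU45 (19.1 with water, 18.7 and 11.9 with 2,4-D) stayed untested, so the filter had a part in the count of 4 of 4 tested genes. UGT72E1 and UGT72E2 of the same pathway did not pass, UGT72E3 was not tested, and no difference from the list was tested.

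The other lists held few tested genes, and few of their genes were matched to a probe set. The matches were 3 of 32 genes in the flavonoid list, 2 of 26 in the glucosinolate list and 5 of 20 in auxin turnover. They were 12 of 65 in detoxification, 1 of 17 in abscisic acid turnover and 1 of 29 in sugar donor supply. In abscisic acid turnover the only tested gene, BGLU33, for a beta-glucosidase that releases abscisic acid from its glucose ester, rose from 34.5 with water to 70.9 and 86.0 with 2,4-D (2.27-fold, limma adjusted p = 0.000954). It moved the same way as UGT71C5, the gene of the opposite step. In auxin turnover 1 of 3 rose, GH3.3, while GH3.5 and GH3.17 did not pass. The flavonoid list had 0 of 2 passing beside the rise of UGT78D2: DFR, for the step to anthocyanins, had 75.2 with water and 57.4 and 53.3 with 2,4-D, and CHIL had 238 with water and 227 and 212. In the glucosinolate list BCAT4 (864 with water, 856 and 953 with 2,4-D) did not pass beside the rise of UGT74B1. Of 10 tested partners in the detoxification of foreign chemicals, all glutathione transferase genes, 0 rose and 1 fell, GSTU27 (224 with water, 134 and 102 with 2,4-D). USP, the only tested gene of sugar donor supply, did not pass (80.2 with water, 82.2 and 66.6 with 2,4-D). The salicylic acid list had 1 of 15 genes matched and 0 tested. In the cytokinin and brassinosteroid lists 0 of 27 and 0 of 15 genes were matched, so these genes were not looked at. Without a second water array, none of these changes carries a measure of the spread between control plants.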

How the data were processed

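The authors made MAS5 signal intensities on a linear scale, per the submitters' processing notes, and the deposited table held these intensities for 1 water and 2 2,4-D arrays. MAS5 scales each array, and no version or target is named in the sources used here. Of 22810 probe sets, 64 were controls and 22746 were analysed. Of these, 13513 had 1 gene symbol, 503 had several and 8730 were unlisted.

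Signals were taken to log2 with no offset or further scaling. The 13648 probe sets with a mean signal at or above the 40th percentile (24.8) were fitted in limma 3.58.1 (R 4.3.3; lmFit, then eBayes, its variance trended on intensity). P-values were adjusted over all of them by Benjamini-Hochberg, with a threshold of 0.05. Only the 2,4-D pair gave a residual degree of freedom (1), so water was assumed to vary like that pair. The prior degrees of freedom were infinite, so each variance came from the trend over signal. The number of arrays limits the precision. The fit was tested on simulated data.

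Members and lists were chosen with earlier results of these data known. Genes with full values are each called UGT, the 10 highest and 10 lowest changes (dim signals raised) among UGTs above the dim control with water or on both 2,4-D arrays, the 5 brightest with water, each subfamily's brightest, and the smallest change in a subfamily with a call. Others were named after their values were seen. From the lists, CHI was dropped because that symbol belongs to a chitinase gene in RefSeq. Other scalings, filters, offset, variance model and single 2,4-D arrays were tried.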

Additional observations from a re-analysis of the deposited data

How the results depend on the processing

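The UGT count of 5 higher and 0 lower became 3 higher and 1 lower without the intensity trend, which called UGT84A4 lower and lost UGT71C5 and UGT74B1. The other alternatives with a test (other scalings, filters, the offset, dim signals raised) gave 4 to 6 higher and 0 lower. Without a filter 5 were higher, of which 4 were among the main calls. Over all probe sets 964 were higher and 710 lower without a filter, and 834 and 839 without the trend. Of the UGT genes at least 2-fold changed on both arrays (9 higher, 5 lower), 0 and 0 were left with an offset of 16, and 2 and 1 with dim signals raised to the control; over all probe sets (1339 higher, 1964 lower) these settings gave 332 and 273, and 524 and 802. With either 2,4-D array left out, 2167 to 2201 of all probe sets were higher and 3440 to 3761 lower by that size, by construction of a rule that needs fewer arrays, and 10 UGT genes were higher and 6 to 7 lower. With arrays scaled to 1 median, the median log2 change went from -0.04 to 0.07 over tested probe sets and from 0.12 to 0.23 over the 47 UGT genes. This setting turned the log2 change of UGT71C4 to 0.082 and that of UGT78D1 to 0.069, neither of which passed, and called UGT76C2. UGT73B5, UGT73B1 and UGT78D2 kept their calls under every alternative that tested them. No paired analysis was possible with 1 water array, and the labels do not say that replicate numbers mark pairs. With 1 array left in each group no test could be fitted. Signals near the dim control limit what can be said of 21 UGT genes that were not above it on all arrays.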
